A study of Homo sapiens with 24 samples.

Results

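Transcripts of 42 listed genes that repair crosslinked and alkylated DNA were followed in HAP1 cells given lomustine, arsenite or no drug. The genes were taken by symbol from the Fanconi pathway, homologous recombination, translesion synthesis, nucleotide excision, mismatch repair and direct reversal, with 1 probe set per gene, the one with the highest mean. Of the 42 genes, 37 had a probe set with their symbol alone, and all 37 were tested, among the 17339 genes tested of the 22109 named on the array. FANCA, FANCD2, BRCA2, XRCC2 and ERCC5 were not analysed here: ERCC5 shares its probe set with other symbols, and no probe set in the annotation used names the other 4. The measured genes were 8 of 9 in the Fanconi core group, 1 of 2 in the ID complex, 6 of 6 crosslink nucleases, 5 of 7 in homologous recombination, 4 of 5 in nucleotide excision, 7 of 7 in translesion synthesis, 2 of 2 in mismatch repair and 4 of 4 in direct reversal and alkyl base excision.

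HAP1 is a near-haploid human line that derives from the chronic myelogenous leukemia line KBM-7. The 6 lines were the parental line (PAR), S51A, in which the translation factor eIF2-alpha cannot be phosphorylated at its stress-responsive serine, and lines that had lost HRI, GCN2, PKR or PERK, each a kinase of eIF2-alpha. All were bought from a commercial supplier, and the labels do not say whether each is a single clone. The arms were no drug (9 arrays), lomustine at 200 µM for 2 h (9 arrays) and SA100 for 2 h (6 arrays). The agent field of the SA100 arrays names lomustine; here their titles set the group, and SA100 is taken to be sodium arsenite at 100 µM, which the treatment text gives. In the no-drug and lomustine arms PAR, S51A and HRI each had arrays A and B; the remaining combinations of line and arm rest on 1 array. Nothing states that A and B were separate cultures, so p-values measure the spread between arrays, which may be technical.

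Lomustine is a nitrosourea that transfers chloroethyl groups to guanine, and these adducts can mature into links between the strands of DNA. MGMT removes the alkyl group from guanine before a link forms, and the Fanconi pathway senses a link that blocks a replication fork, marks it through the core ubiquitin ligase and the ID complex, and directs nucleases, translesion polymerases and recombination to it. Mismatch repair reads methylated guanine paired with thymine and signals cell death, so its loss is known for making cells tolerant of methylating drugs. Lomustine adds chloroethyl groups instead. Arsenite binds thiol groups and causes oxidative and protein stress. Much of this repair is regulated on existing protein, by ubiquitin and phosphate marks that an expression array does not measure.

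Values are RMA log2 values, in which a difference of 1 is a doubling of signal. Array B of S51A with lomustine stood apart: 8.72% of its probe sets deviated by over 1 log2 unit from the other arrays' median, against 3.38% on the next array, PAR lomustine A. It held the lowest value of 28 of the 37 repair genes, or 75.7% of them, and of 28.6% of all genes tested. The repair genes' median level was 4.24 there and between 4.59 and 5.27 on the other arrays. The median of 20 S phase genes was 7.17 there and between 7.57 and 7.98 elsewhere; its part in the repair values was not tested. For lomustine against no drug, the repair genes' median and count below 0 are given with and without it, as are those of most pathways. Some other counts and medians, such as those of the S phase genes, are given with all arrays only. EGR1, an immediate-early gene, rose by 3.57 (SE 0.216, limma with Benjamini-Hochberg adjustment, adjusted p = 2.52e-09) with lomustine and by 4.85 with SA100. The transcripts of the deleted kinases were no lower at the test's threshold in their own lines (EIF2AK1 by −0.03, EIF2AK4 by −0.25, EIF2AK2 by −0.19, EIF2AK3 by −0.59), and since it is not known whether the probes lie in the deleted parts, these values check nothing. Of 8 blood, 5 epithelial and 5 fibroblast markers, 1 blood and 1 fibroblast marker were below the median of all values (2.42) on every array. EPCAM, an epithelial adhesion gene, was higher in S51A than in PAR by 2.15 (SE 0.382, adjusted p = 0.00172). In bulk RNA, a lower level in all cells and a loss of transcript in some of them cannot be told apart.

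After 2 h of lomustine, none of the 37 repair genes passed the test against no drug (limma with arm and line as terms, Benjamini-Hochberg adjustment over all genes tested), where 1.03% of all genes did. At an unadjusted p under 0.05 there were 11 of 37, all with lower values under lomustine, against 14.2% of all genes, 11.6% lower; without array B of S51A with lomustine there were 6 (FANCB, FANCC, FANCF, MUS81, REV3L and MSH6), against 11.2% of all genes. The estimates leaned downward: 32 of 37 were below 0 with a median of −0.16, and 60.9% of all genes were below 0 with a median of −0.04. They ran from −0.58 for ERCC4 to 0.12 for XPA. With all arrays, all 37 upper limits of the 95% intervals were under 0.5 log2 units, the highest at 0.43 for FANCL, which is 1.35-fold. This bound covers the full set of arrays only. The FANCL estimate was 0.10 (SE 0.204) without S51A lomustine B and 0.21 (SE 0.195) without PAR lomustine A as well. No repair gene had lomustine arrays that all lay outside the no-drug range, as 0.156% of all genes did. Without S51A lomustine B the median was −0.07, with 25 of 37 below 0 (58.2% of all genes). In that case 7 estimates changed sign to positive: FAN1, FANCG, FANCL, MPG, POLI, REV1 and XRCC3. Without PAR lomustine A as well the median was −0.05, with 22 below 0 (54.3% of all genes); 0 passed in either case. When the table was quantile normalized again, the median was −0.05 with 25 below 0, 1 gene passed, and calls over all genes moved from 43 higher and 135 lower to 103 higher and 107 lower.

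**Figure D1:**
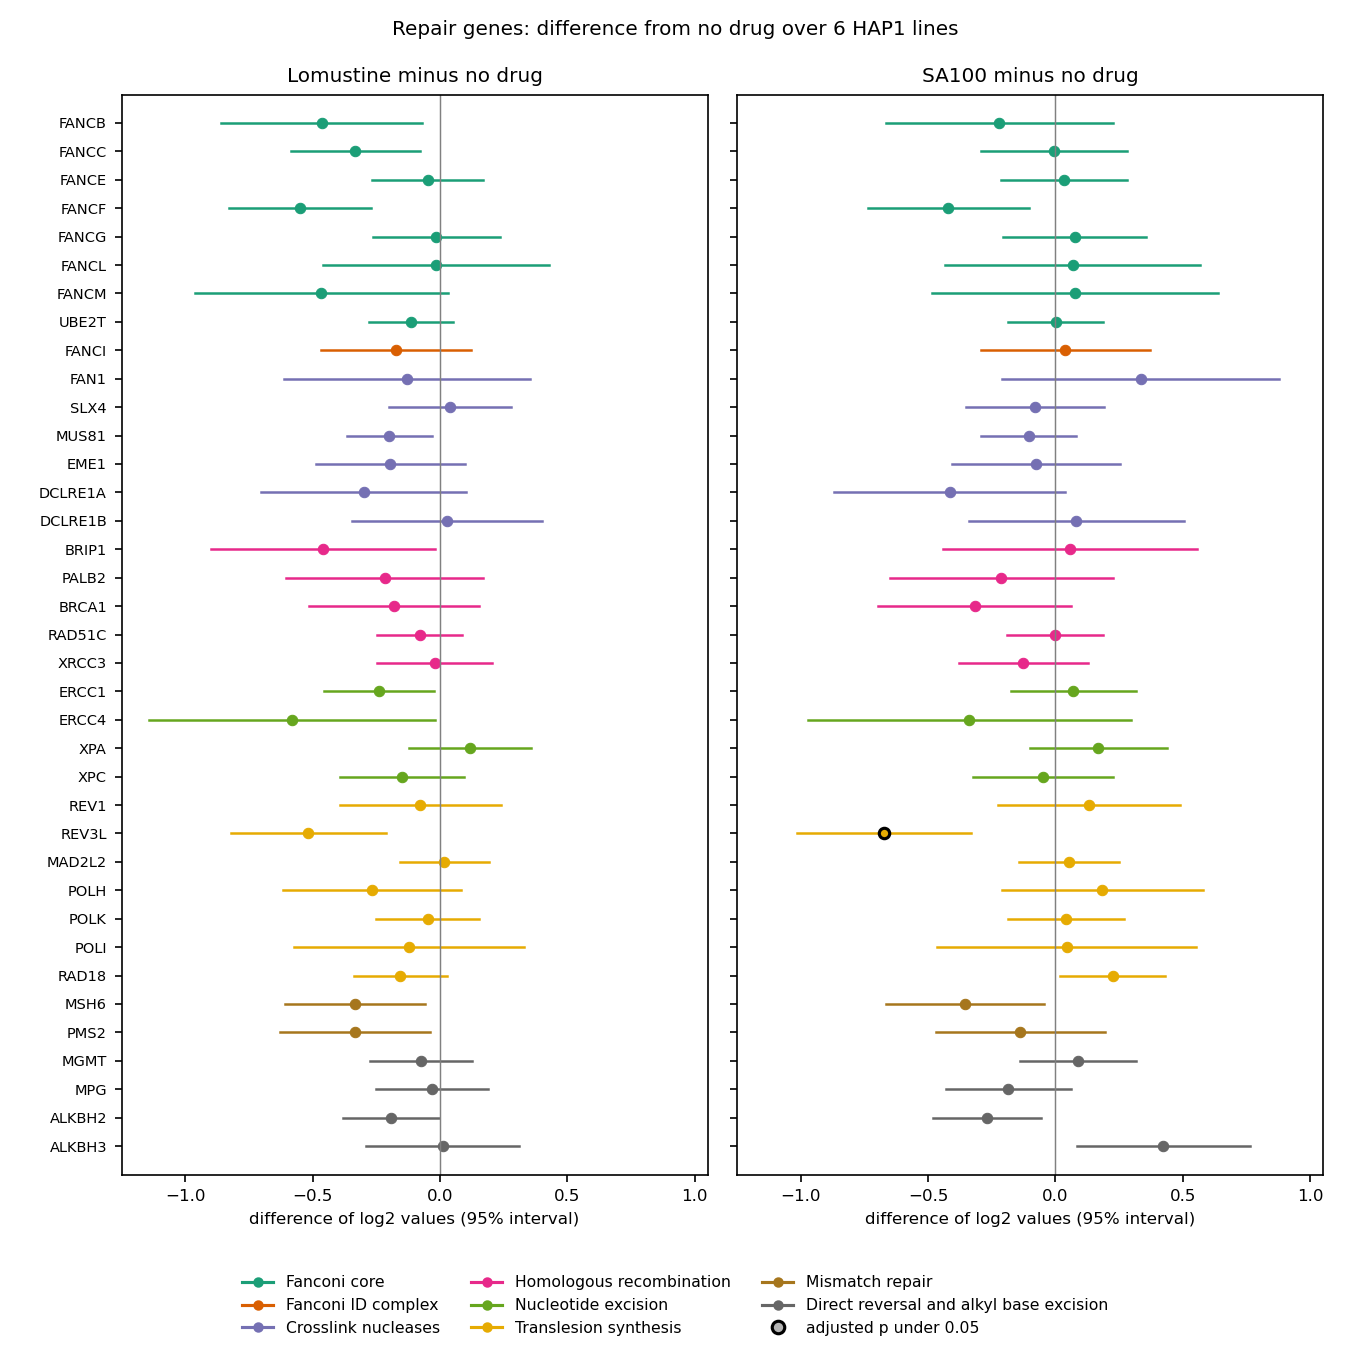
Log2 difference from no drug (x axis) for each of the 37 repair genes (y axis, coloured by pathway), with lomustine on the left and SA100 on the right. Points are limma estimates over 24 arrays and lines are 95% intervals; a black ring marks an adjusted p under 0.05, which only REV3L under SA100 has, at −0.67.

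The Fanconi core group senses the crosslink and builds the ubiquitin ligase. All 8 measured members had estimates below 0 under lomustine (median −0.22), and 0 passed the test. Without S51A lomustine B, 6 of 8 were below 0 (median −0.18), with FANCG and FANCL above, and without PAR lomustine A as well, 5 of 8 (median −0.12). FANCF, the adaptor that holds the core complex together, came closest of all repair genes. Its no-drug arrays ran from 3.42 to 4.43 with a median of 3.77, and its lomustine arrays from 2.87 to 3.73 with a median of 3.40. The highest FANCF values came from PAR A (4.43) and both S51A arrays without drug (4.27 and 4.34), and the arms overlapped. The difference was −0.55 (SE 0.135, adjusted p = 0.0512), with lower means in 5 of 6 lines and a mean higher by 0.18 in GCN2. FANCF crossed the threshold in 7 of 41 alternatives, over which its adjusted p ran from 0.0303 to 0.761. It passed with the stricter filter (0.0476), quantile normalization (0.0347), or without GCN2 no drug (0.0488), PAR lomustine B (0.0446), S51A lomustine A (0.0429), GCN2 lomustine (0.0303) or the GCN2 line (0.0451). Without S51A lomustine B it was −0.45 (adjusted p = 0.0634).

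FANCC, a core subunit beside FANCF, ran from 4.67 to 5.25 without drug and from 3.95 to 4.96 with lomustine, with medians of 4.89 and 4.68. Its lowest value came from PERK with lomustine, and it was lower in all 6 lines, by −0.33 (SE 0.122, adjusted p = 0.213). FANCB, the X-linked subunit that joins the ligase module, had medians of 5.22 without drug and 4.98 with lomustine. Its lomustine values of 3.72 (S51A B) and 3.97 (PAR A) lay far below the other 7, which were between 4.81 and 5.34. The FANCB difference of −0.46 (SE 0.189, adjusted p = 0.262) shrank to −0.18 without those arrays. FANCM, the translocase that recruits the complex, stood at −0.47 (adjusted p = 0.386), and UBE2T, the ubiquitin-conjugating enzyme, at −0.11 (adjusted p = 0.553). FANCE, FANCG and FANCL (the last is the catalytic subunit) lay between −0.05 and −0.01. FANCI, the measured member of the ID pair that the ligase marks, had medians of 8.20 without drug and 8.25 with lomustine and an estimate of −0.17 (adjusted p = 0.612). Without S51A lomustine B, where FANCI was 6.58, the estimate was −0.03.

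Among the 6 crosslink nucleases and unhooking factors, 4 estimates were below 0 and 2 above (median −0.16), and 0 passed; without S51A lomustine B, 3 were below and 3 above (median −0.03). MUS81, which cuts stalled forks together with EME1, ran from 4.16 to 4.70 without drug and from 3.95 to 4.43 with lomustine. Its difference was small but had the same sign in all 6 lines, −0.20 (SE 0.0801, adjusted p = 0.258). EME1 stood at −0.20 (−0.12 without S51A B) and DCLRE1A, a nuclease that digests past the link, at −0.30 (−0.17 without S51A B). FAN1, a nuclease that binds the marked ID complex, stood at −0.13 (0.06 without S51A B, 0.24 without PAR A as well). DCLRE1B stood at 0.03, at 0.21 without S51A B, and at 0.30 without PAR A as well (limma, adjusted p = 0.147). SLX4, the nuclease scaffold, stood at 0.04 (0.10 without S51A B). In homologous recombination, which rebuilds the broken strand, all 5 measured genes were below 0 (median −0.18) and 0 passed; without S51A lomustine B, 4 were (median −0.07). BRIP1, a helicase partner of BRCA1, ran from 6.59 to 7.16 without drug and from 4.44 to 6.97 with lomustine. Its lowest value was S51A B and the next was 6.07, so the estimate of −0.46 (SE 0.212, adjusted p = 0.329) became −0.24 without that array. PALB2, which links BRCA1 to BRCA2, stood at −0.22 (−0.08 without it), BRCA1 at −0.18 (−0.07), RAD51C at −0.08 (−0.06) and XRCC3 at −0.02 (0.07).

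In nucleotide excision, which cuts out bulky and crosslinked bases, 3 of 4 genes were below 0 (median −0.19) and 0 passed; without S51A lomustine B it was the same count (median −0.12). ERCC1 and ERCC4 form the nuclease that cuts on the 5′ side of a lesion and also acts on crosslinks. ERCC1 had medians of 6.0 without drug and 5.67 with lomustine, a difference of −0.24 (SE 0.104, adjusted p = 0.302). ERCC4 ran from 5.05 to 6.18 without drug and from 3.45 to 6.11 with lomustine. The ERCC4 estimate of −0.58 (SE 0.271, adjusted p = 0.333) had the widest interval of the group and was −0.24 without S51A B and PAR A. XPC, the damage sensor, stood at −0.15 (−0.06 without S51A B), and XPA, which verifies the lesion, at 0.12. In mismatch repair, MSH6 and PMS2 gave nearly equal estimates. MSH6, which recognises mismatches, ran from 6.82 to 7.25 without drug and from 6.0 to 7.01 with lomustine, with medians of 7.0 and 6.85. It was lower in all 6 lines, by −0.34 (SE 0.132, adjusted p = 0.243), and by −0.16 without PAR A and S51A B, where it was 6.0 and 6.25. PMS2, an endonuclease of the pathway, stood at −0.33 (adjusted p = 0.278); a second probe set that also names PMS2 pseudogenes was not used, and signal from such copies cannot be told apart from PMS2 by symbol.

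Translesion polymerases copy past the unhooked link. REV3L, the catalytic subunit of polymerase zeta, gave the second smallest p of the repair genes with lomustine. Its no-drug arrays ran from 5.82 to 6.47 (median 6.18) and its lomustine arrays from 4.71 to 6.0 (median 5.84). The arms overlapped, with the lowest lomustine values in S51A B (4.71) and PAR A (5.00). REV3L was lower in 6 of 6 lines, by 0.13 log2 units in HRI and by more in the others, and the estimate was −0.52 (SE 0.146, adjusted p = 0.0971). It passed only without S51A lomustine A among 41 alternatives (−0.59, adjusted p = 0.0378); the adjusted p ran up to 0.767, and without S51A B the estimate was −0.42 (adjusted p = 0.152). The other 6 translesion genes did not pass: POLH, which bypasses bulky lesions, stood at −0.27 (−0.14 without S51A B), RAD18, the ligase that marks PCNA for polymerase switching, at −0.16, POLI at −0.12, REV1, the scaffold of the polymerases, at −0.08, POLK at −0.05 and MAD2L2, the small subunit of polymerase zeta, at 0.02. Of the 7 translesion genes 6 were below 0 (median −0.12), and 4 without S51A B (median −0.06), where POLI was at 0.01 and REV1 at 0.02. FANCC, MUS81, REV3L and MSH6 were lower in all 6 lines, 4 of 37, where 8.71% of all genes were; no repair gene was higher in all 6, where 2.16% of all genes were.

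Direct reversal undoes the alkylation itself. MGMT, which takes up the alkyl group from guanine and is used up by it, was close to the limit of what the array resolved. Its values ran from 2.32 to 3.14 without drug (median 2.64), from 2.30 to 3.12 with lomustine (median 2.42) and from 2.47 to 2.96 with SA100 (median 2.86), where 2.42 is the median of all values in the table. MGMT lay below that median on 2 no-drug and 4 lomustine arrays. The lomustine estimate was −0.07 (SE 0.0971, adjusted p = 0.772), and values this near the background leave little room to measure a fall. ALKBH2, a dioxygenase that strips methyl groups from DNA bases, gave the smallest p of these 4 genes, with medians of 5.16 and 5.01 and a difference of −0.19 (SE 0.0903, adjusted p = 0.335). MPG, the glycosylase that removes alkylated purines, stood at −0.03 and ALKBH3 at 0.01; without S51A B, 2 of these 4 genes were below 0 in place of 3.

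**Figure D2:**
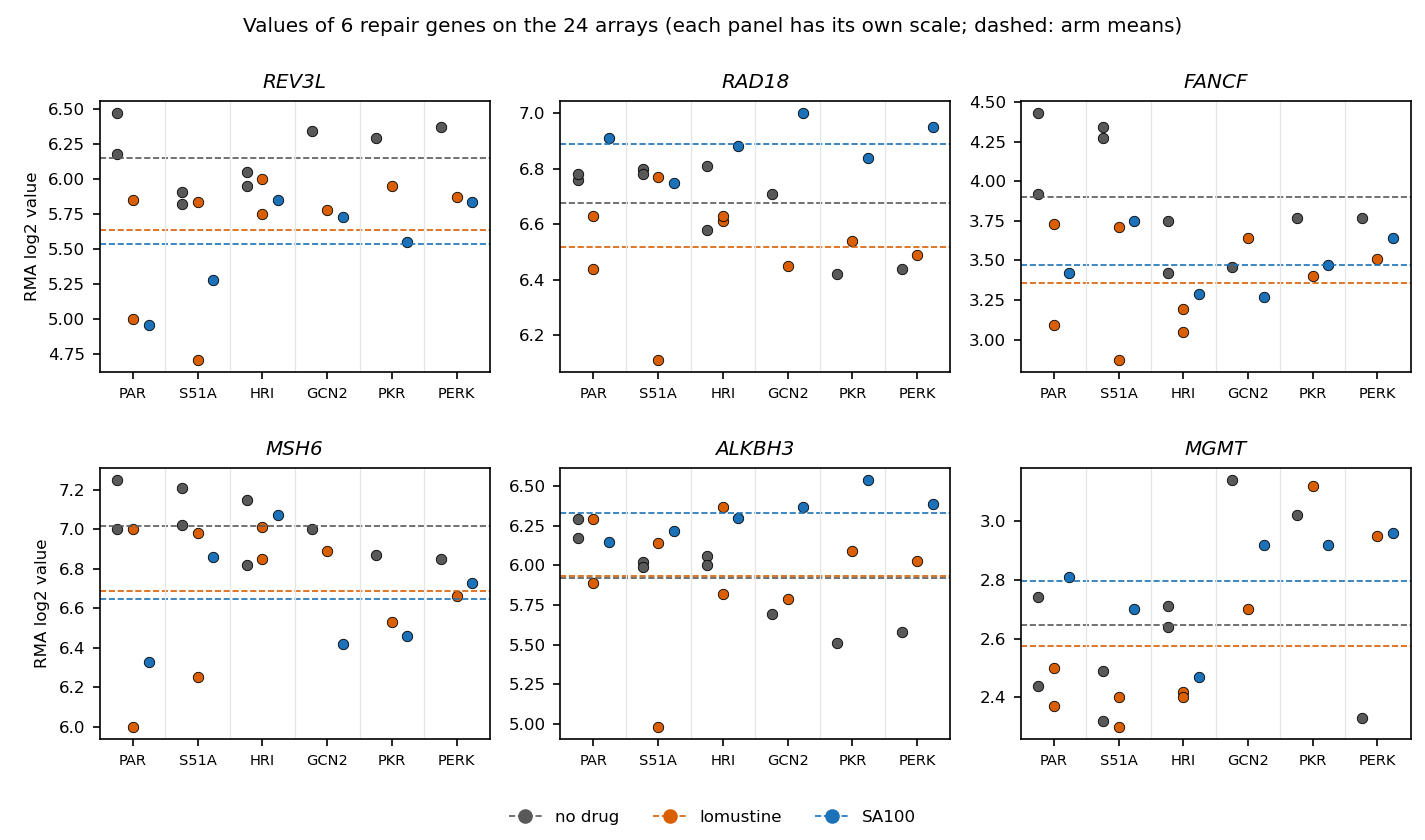
RMA log2 values (y axis, a separate scale in each panel) of REV3L, RAD18, FANCF, MSH6, ALKBH3 and MGMT on each of the 24 arrays, grouped by HAP1 line on the x axis and coloured by arm; dashed lines are arm means. The SA100 values of REV3L lie below the untreated values of the same line in all 6 lines. S51A lomustine B gives the lowest point of REV3L (4.71), RAD18 (6.11), FANCF (2.87), ALKBH3 (4.98) and MGMT (2.30).

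With SA100, 1 of the 37 repair genes passed the test. That gene, REV3L, was lower, where 0.952% of all genes were lower. The REV3L arrays read 4.96 in PAR, 5.28 in S51A, 5.85 in HRI, 5.73 in GCN2, 5.55 in PKR and 5.84 in PERK with SA100, against 5.82 to 6.47 without drug. PAR, S51A and PKR were lowest, and the HRI and PERK arrays reached into the lower end of the no-drug range, which S51A set. REV3L fell by 0.67 log2 units (SE 0.165, limma with Benjamini-Hochberg adjustment, adjusted p = 0.027), and it was lower in 6 of 6 lines, from −0.15 in HRI to −1.37 in PAR. It passed in 26 of 39 alternatives, with an adjusted p between 0.000549 and 0.240 over all of them. Without S51A lomustine B, the fall was 0.66 (adjusted p = 0.00818). The call was lost without PAR no drug B (adjusted p = 0.0527), GCN2 no drug (0.0611), PKR no drug (0.0562), PERK no drug (0.0533), PAR SA100 (0.0935), GCN2 SA100 (0.0646), PKR SA100 (0.0813) or PERK SA100 (0.0588), where the estimates lay between −0.56 and −0.70, without the PAR (0.110), GCN2 (0.0956), PKR (0.104) or PERK (0.083) line, and with the mean of the line-wise contrasts (0.240).

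The promoters of REV3L and RAD18, which passed the comparison of SA100 with lomustine, are shown because these were the repair genes past a test. The sequences are the 250 bases before the gene start in RefSeq on GRCh38.p14, with GC boxes (GGGCGG, on either strand) in capitals. REV3L, for which the farthest upstream of 2 listed starts was taken, lies on the minus strand at chr6:111483712-111483961. RAD18 lies on the minus strand at chr3:8963473-8963722.
REV3L: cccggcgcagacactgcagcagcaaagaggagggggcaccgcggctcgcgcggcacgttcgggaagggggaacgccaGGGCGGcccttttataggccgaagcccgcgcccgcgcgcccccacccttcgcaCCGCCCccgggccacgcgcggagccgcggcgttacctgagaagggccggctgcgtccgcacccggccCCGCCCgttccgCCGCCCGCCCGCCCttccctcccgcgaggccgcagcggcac
RAD18: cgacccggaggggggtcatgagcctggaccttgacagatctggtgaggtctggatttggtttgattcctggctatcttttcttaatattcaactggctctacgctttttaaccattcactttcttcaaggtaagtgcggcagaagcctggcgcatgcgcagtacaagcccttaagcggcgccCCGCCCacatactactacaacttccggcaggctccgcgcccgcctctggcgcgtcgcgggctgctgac
The REV3L window held 6 GC boxes, some overlapping, in 78.4% G and C, and the RAD18 window held 1 in 56.8%. Of the 41 listed repair genes with a promoter in the table, 30 had a GC box in at least 1 such window, where 46.2% of 27305 genes did, and 16 had a CCAAT box, where 37.0% did. FANCF was among the CCAAT genes. The EGR1 element GCGTGGGCG was in 0 of the 41, where 0.886% of genes had it, and the C/EBP-ATF element TGATGNAA in 0, where 3.89% did. The cAMP response element TGACGTCA was in 3 (RAD51C, XRCC2 and PMS2), where 2.03% had it. The E2F element TTTCCCGC was in 4 (FANCC, XPC, REV3L and POLI), where 1.70% had it; in REV3L it lies in the window of the other start. These are matches of letters on both strands, and their part in the array values was not tested.

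The other 36 repair genes did not pass with SA100. At an unadjusted p under 0.05 there were 6 of 37, 4 of them lower, against 16.5% of all genes, 5.93% lower. Without S51A lomustine B, DCLRE1A joined them, also lower (−0.40, limma adjusted p = 0.223). The median was 0.00, with 18 of 37 below 0, and that of all genes was 0.04. FANCF again lay low, with SA100 arrays between 3.27 and 3.75 (median 3.45) against 3.42 to 4.43 without drug. It was lower in 6 of 6 lines, by −0.42 (SE 0.152, adjusted p = 0.151). The other core genes lay between −0.22 for FANCB and 0.08 for FANCM. ALKBH2 and ALKBH3, related dioxygenases, had estimates of opposite sign. ALKBH2 ran from 4.69 to 4.99 with SA100 and from 4.96 to 5.43 without drug, a difference of −0.27 (SE 0.102, adjusted p = 0.176), and was lower in all 6 lines, in PERK by less than 0.01. ALKBH3, which also acts on RNA and single-stranded DNA, ran from 6.15 to 6.54 with SA100 and from 5.51 to 6.29 without drug. Its SA100 values were highest in PKR and its no-drug values lowest in GCN2, PKR and PERK, and the arms overlapped only through PAR. The ALKBH3 difference was 0.42 (SE 0.163, adjusted p = 0.181), above 0 in 5 of 6 lines, and it passed without S51A lomustine B (0.43, adjusted p = 0.0387).

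MSH6 had a median of 6.60 with SA100 and 7.0 without drug. Its SA100 arrays were low in PAR (6.33), GCN2 (6.42) and PKR (6.46) and at 7.07 in HRI, within the no-drug range, and the difference was −0.36 (SE 0.149, adjusted p = 0.224). Among the nucleases, DCLRE1A stood at −0.42 (adjusted p = 0.353) and FAN1 at 0.33, whose upper limit of 0.88 was the highest of the 37. In recombination, BRCA1 stood at −0.32 (adjusted p = 0.400), and in excision repair ERCC4 at −0.34 and XPA at 0.17. FANCF, REV3L and ALKBH2 were lower in all 6 lines, 3 of 37, where 4.68% of all genes were; 0 were higher in all 6, where 8.40% of all genes were, and no SA100 arrays lay wholly outside the no-drug range, as those of 1.54% of all genes did. The lomustine and SA100 estimates share their no-drug arrays, so a gene low in both, such as REV3L or FANCF, is not measured independently. Without both S51A lomustine B and PAR lomustine A, 3 of 37 genes passed with SA100, where 6.97% of all genes did. They were REV3L (−0.66, adjusted p = 0.00226), FANCF (−0.40, adjusted p = 0.0269) and ALKBH3 (0.44, adjusted p = 0.0282). Over all genes, SA100 calls were 365 higher and 165 lower, 483 and 496 after quantile normalization, and 191 and 228 with arrays centred on their medians.

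Set directly against lomustine, SA100 gave a higher value of RAD18, 1 of 37, where 5.48% of all genes were higher. RAD18 read 6.75 to 7.0 with SA100 (median 6.89), 6.11 to 6.77 with lomustine (median 6.54) and 6.42 to 6.81 without drug (median 6.76). The SA100 and lomustine arrays overlapped only at S51A, where SA100 gave 6.75 and lomustine A 6.77. The difference was 0.38 (SE 0.0988, limma with Benjamini-Hochberg adjustment, adjusted p = 0.0252). Against no drug RAD18 stood at 0.22 with SA100 (adjusted p = 0.253) and at −0.16 with lomustine (adjusted p = 0.429), so neither arm alone passed. The RAD18 call was lost after quantile normalization (0.21, adjusted p = 0.0894) and with arrays centred on their medians (0.30, adjusted p = 0.154), where calls over all genes moved from 950 higher and 82 lower to 590 and 424, and 289 and 97. It was also lost without GCN2 lomustine (0.0563), GCN2 SA100 (0.0691), PKR SA100 (0.0684), PERK SA100 (0.0885), or the PAR (0.0792), HRI (0.0589), GCN2 (0.0958), PKR (0.0642) or PERK (0.0938) line. Without S51A lomustine B, where RAD18 was lowest, it was 0.33 (adjusted p = 0.0234).

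Across the 6 lines, 0 of the 37 repair genes differed by the F test, where 3.59% of all genes did, and at an unadjusted p under 0.05 there were 3, MGMT, FANCI and REV1, against 12.4% of all genes. Without S51A lomustine B, DCLRE1B (F test, adjusted p = 0.239) and FANCF (0.153) also had an unadjusted p under 0.05. In that setting 0 repair genes passed, where 5.15% of all genes did. MGMT (adjusted p = 0.141) was highest in GCN2 (2.70 to 3.14) and PKR (2.92 to 3.12) and lower in PAR (2.37 to 2.81), S51A (2.30 to 2.70) and HRI (2.40 to 2.71). PERK spanned both ranges, at 2.33 without drug and 2.95 and 2.96 with the drugs. MGMT exceeded PAR by 0.33 in GCN2 and by 0.43 in PKR, and it passed the F test only where PERK no drug or the PERK line was left out. FANCI (adjusted p = 0.166) was lowest in S51A, at 7.80 to 8.04 apart from 6.58 on lomustine B, against 7.90 to 8.47 in PAR. Its difference from PAR was −0.58 (SE 0.190, adjusted p = 0.152), and −0.32 (adjusted p = 0.199) without that array. REV1 (adjusted p = 0.288) ran from −0.40 in S51A to 0.32 in PERK against PAR. REV3L, UBE2T, DCLRE1A, BRIP1, FANCF, POLK and MUS81 followed, with adjusted p between 0.575 and 0.836. After the removal of both S51A lomustine B and PAR lomustine A, FANCF (adjusted p = 0.0397) and FANCI (0.0339) passed, where 6.57% of all genes did.

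Line by line against PAR, no repair gene passed. In S51A 2.18% of all genes did, and the repair genes' median was −0.13 with 29 of 37 below 0, against −0.02 and 54.1% for all genes. Without array B of S51A with lomustine, 18 of 37 were below 0 and the median was 0.00. With all arrays, FANCI alone had an unadjusted p under 0.05, against 9.74% of all genes. Without array B, FANCI (−0.32) was joined by DCLRE1B (0.44), FANCB (0.46) and BRCA1 (0.41), each higher in S51A than in PAR. Their limma adjusted p lay between 0.150 and 0.415. In HRI 0.144% of all genes passed, the repair median was −0.05, and FANCF (−0.38) and MUS81 (−0.23) had an unadjusted p under 0.05, against 7.61% of all genes. In GCN2 0.0692% of all genes passed, in PKR 0% and in PERK 0.179%, and the repair medians were 0.03, 0.02 and −0.05. MGMT alone had an unadjusted p under 0.05 in GCN2 (4.08% of all genes) and in PKR (3.03%), and 0 repair genes did in PERK (5.63%). In S51A the 7 translesion genes were below PAR with all arrays (median −0.18), but 4 of 7 were without array B (median −0.01), and the 4 excision genes went from 4 below (median −0.23) to 3 (median −0.09).

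**Figure D3:**
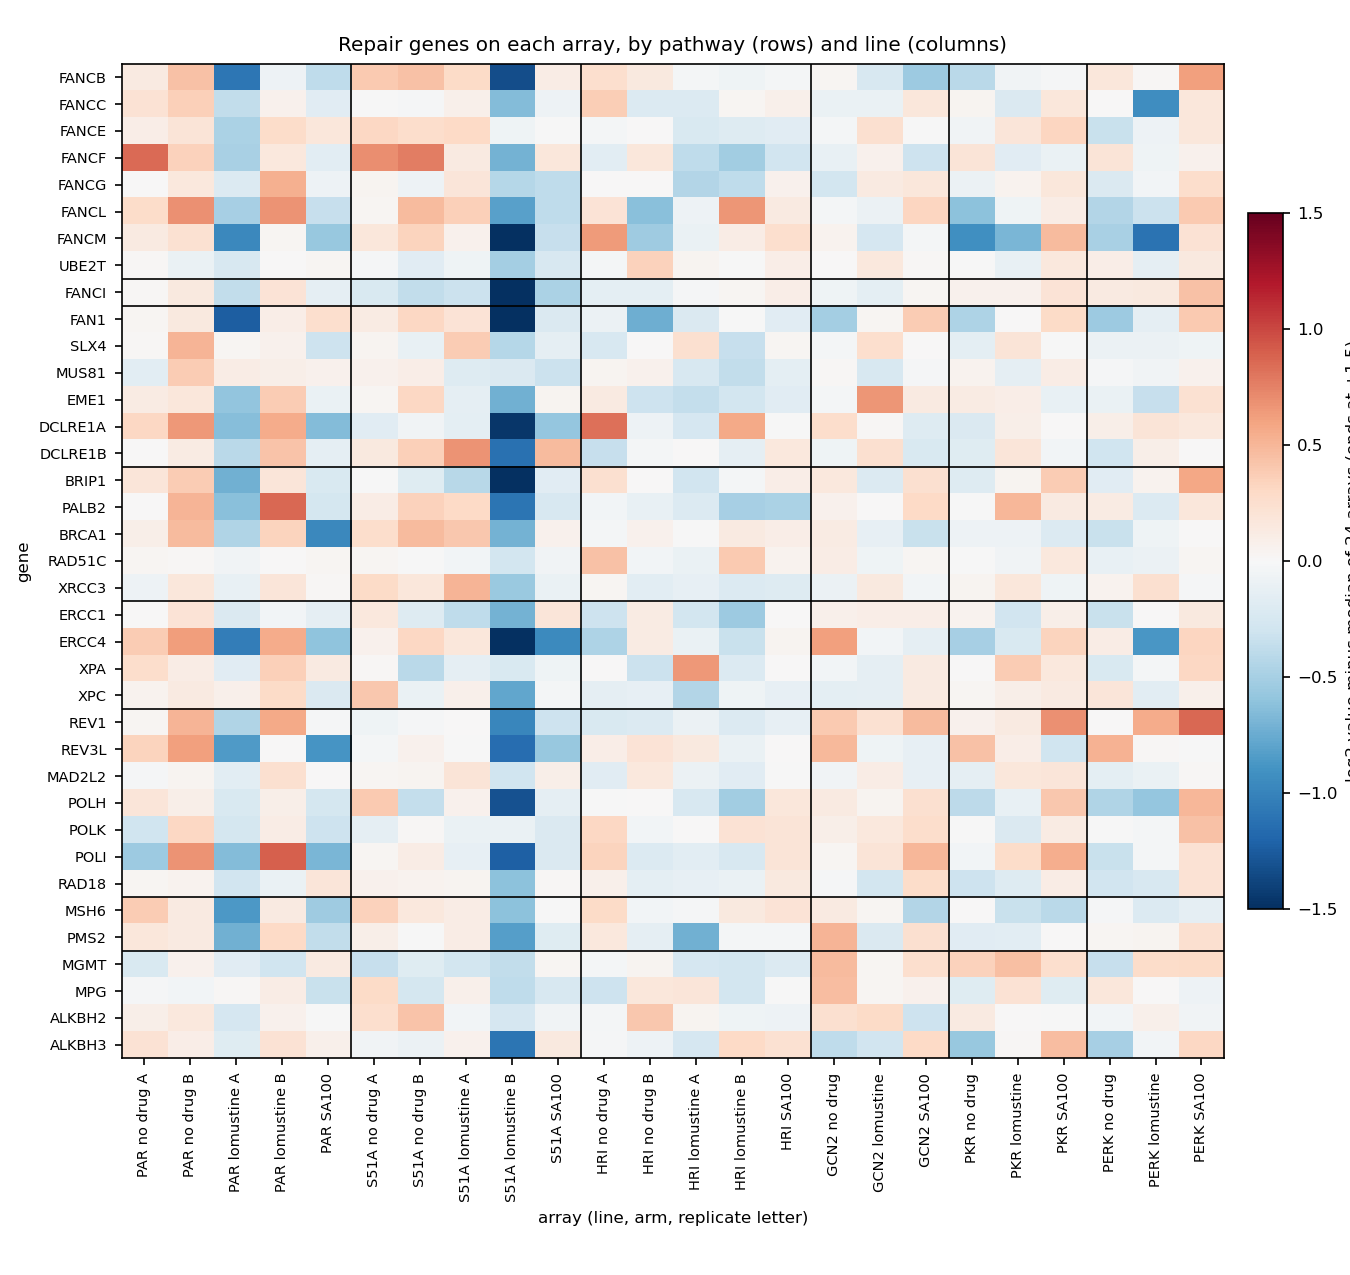
RMA log2 value of each of the 37 repair genes (rows, by pathway) on each of the 24 arrays (columns, by line), as the difference from the gene's median over all arrays; red is higher, blue lower, and the colour ends at 1.5. The column of S51A lomustine B is blue nearly throughout, PAR lomustine A less so, and no column of another lomustine array is.

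The drug response was then compared within and between the lines that had A and B arrays, in a model with 1 mean per group (6 residual degrees of freedom). No repair gene passed for lomustine in PAR (0% of all genes), S51A (0.0115%) or HRI (0%). At an unadjusted p under 0.05, FANCF (−0.77) and REV3L (−0.90) were low in PAR (2.90% of all genes), BRIP1 (−1.29) and FANCF (−1.01) in S51A (4.08%), and 0 repair genes in HRI (1.49%). The response in S51A less that in PAR passed for 0 repair genes (0% of all genes), and that in HRI less that in PAR likewise for 0 (0%), with 0 at an unadjusted p under 0.05 in both. With array A of S51A lomustine left out, array B stood alone and was assumed to vary like the other groups; 9 repair genes were then called lower in S51A (BRIP1, DCLRE1B, ERCC4, FAN1, FANCB, FANCF, FANCI, FANCM and POLH), where 9.23% of all genes were called.

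These comparisons rest on how far arrays A and B differed. Array B of S51A lomustine was lower than A in 36 of 37 repair genes, by a median of 0.86 log2 units, where 63.6% of all genes were lower. Array A of PAR lomustine was lower than B in all but 2, with a median gap of 0.64. Over all genes, B of this pair was lower in 37.6%. In the other 4 pairs the median size of the gap over the repair genes was between 0.15 and 0.32. By array A of S51A alone, 20 of 37 repair genes were below no drug, with a median of −0.01 (49.3% of all genes). By array B alone, all 37 were, with a median of −0.89 (62.8% of all genes). In PAR, 36 were below by array A (median −0.47) and 15 by array B (median 0.06), against 66.5% and 56.0% of all genes.

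Over whole lines, the median lomustine difference of the 37 genes was −0.21 in PAR, −0.48 in S51A, −0.12 in HRI, −0.07 in GCN2, 0.12 in PKR and 0.03 in PERK. With SA100 the medians were −0.30 in PAR, −0.26 in S51A, 0.07 in HRI, 0.02 in GCN2, 0.15 in PKR and 0.30 in PERK. With SA100, 31 of 37 repair genes were below no drug in PAR and 31 in S51A, against 16 in HRI, 16 in GCN2, 8 in PKR and 7 in PERK. Of all genes, 50.1%, 47.2%, 39.3%, 43.2%, 42.4% and 43.0% were below 0, in the same order of lines. The SA100 groups have 1 array per line, as do the no-drug groups of GCN2, PKR and PERK, so this order has no replicate check. Each line's lomustine and SA100 differences also share its no-drug arrays.

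**Figure D4:**
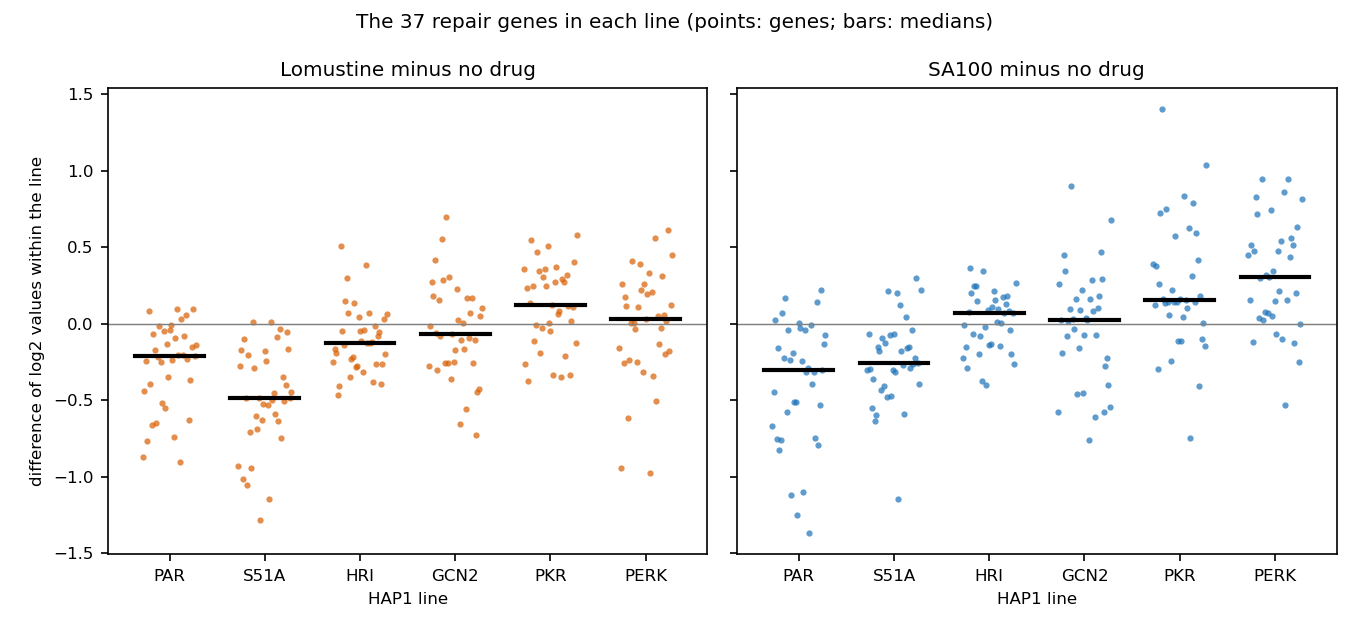
Log2 difference from no drug (y axis) within each HAP1 line (x axis) for the 37 repair genes, with lomustine on the left and SA100 on the right; points are genes and bars are medians. The bars are lowest in S51A for lomustine (−0.48) and in PAR for SA100 (−0.30), and highest in PKR (0.12) and PERK (0.30).

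A wider list held 83 other genes of DNA repair, 69 of them measured. None of the 69 passed with lomustine, where 1.03% of all genes did, and the median was −0.15 with 57 below 0. At an unadjusted p under 0.05 there were 10, all lower, against 14.2% of all genes, 11.6% lower. Without S51A lomustine B 4 had an unadjusted p under 0.05 and the median was −0.06 with 46 below 0; without PAR lomustine A as well it was −0.03 with 41, and after quantile normalization −0.01 with 38. With SA100 0 of the 69 passed, where 3.06% of all genes did, and the median was 0.03. At an unadjusted p under 0.05 there were 22, against 16.5% of all genes. In this comparison 11 passed after quantile normalization (5 higher, 6 lower), 5 without S51A lomustine B (4 higher) and 9 without both arrays (6 higher). Of all genes, 5.65%, 5.38% and 6.97% passed in these settings. Against lomustine, SA100 gave higher values of 8 of the 69, where 5.48% of all genes were higher. These were ERCC3, a helicase of TFIIH (0.45, adjusted p = 0.00491), CENPX, a partner of FANCM (0.83, adjusted p = 0.0138), FEN1, a flap nuclease (0.42, adjusted p = 0.0145), XAB2, a factor of transcription-coupled repair (0.51, adjusted p = 0.0167), and ALKBH1, OGG1, XRCC1 and BRCC3. After quantile normalization 1 of the 69 was higher and 3 lower, and with arrays centred on their medians 1 (CENPX) was higher. In these settings 5.85% and 2.23% of all genes passed, in either direction. By the F test across lines BRCC3, CETN2 and DDB2 passed, where 3.59% of all genes did. DDB2, the ultraviolet damage sensor and a p53 target, was lower in S51A than in PAR by −0.94 (SE 0.220, adjusted p = 0.0205). DDB2 read 4.88 and 4.74 in S51A without drug, 4.82 and 3.49 with lomustine and 4.50 with SA100, against 5.14 to 5.79 in PAR, so the lines did not overlap even without the lomustine B array of S51A, though DDB2 no longer passed the F test without it. Of 20 S phase genes 0 passed with lomustine (median −0.10), and of 17 genes of G2 and mitosis 0 passed (median −0.19). The median of all genes was −0.04, and 1.03% of them passed. Both list medians include S51A lomustine B and were not computed without it.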

How the data were processed

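Total RNA of 24 samples was measured on an Affymetrix array. The authors deposited 1 table of log2 values for 53617 probe sets, made with RMA and the R package affy per the submitters' processing notes; versions and a genome build are not given in the sources used here. Arrays give no read depth, and their number limits the precision. Of the annotated probe sets, 23558 had exactly 1 gene symbol (22109 genes), 2155 had several, and 27904 of the table had no annotation. A gene was tested if at least 2 arrays reached the median of all values (2.42). R 4.3.3 with limma 3.58.1 fitted arm and line over 24 arrays (16 residual degrees of freedom), or 1 mean for each of 18 groups (6), two-sided, with Benjamini-Hochberg adjustment over 17339 genes and a threshold of 0.05; the fits were tested on simulated data. The members and lists were chosen with earlier results of these data known. All members are accounted for by pathway; those past a test, or else the 6 with the smallest p, have full values, as have up to 10 for the lines, 1 per pathway for lomustine, and up to 4 other repair genes each way. Promoters are from RefSeq; all other coordinates were left out. Alternatives were other filters, all probe sets averaged, quantile normalization, median centring, a trended robust prior, other models, replicate blocks, and arrays or lines left out.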

Additional observations from a re-analysis of the deposited data

Results flagged for a closer look

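In 111 groups of arrays (37 repair genes in 3 arms), 13 had an end value far from the rest by Dixon's criterion. In 5 of the 13 it was array B of S51A with lomustine, which was lowest for FANCI (6.58, next 7.90), BRIP1 (4.44, next 6.07), POLH (3.78, next 4.51), RAD18 (6.11, next 6.44) and ALKBH3 (4.98, next 5.79). Without drug, PAR B was highest for SLX4 (4.34, next 3.87) and MUS81 (4.70, next 4.42), HRI A for RAD51C (5.77, next 5.44) and GCN2 for PMS2 (6.53, next 6.19), and PKR was lowest for FANCB (4.64, next 5.08). With lomustine, HRI B was highest for RAD51C (5.72, next 5.33). With SA100, S51A was lowest for UBE2T (7.80, next 8.06) and GCN2 for ALKBH2 (4.69, next 4.92). No repair gene's lomustine response differed between lines by the test of the difference.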

How the results depend on the processing

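The count of repair genes past the lomustine test was 0 in 34 of 41 alternatives, and 0 to 2 with an array or line left out. It was 1 with the stricter filter (1.26% of all genes) and 1 with quantile normalization (1.21%). The SA100 count of 1 became 3 with quantile normalization (5.65% of all genes) and 3 without both S51A lomustine B and PAR lomustine A (6.97%). It became 0 with the mean of the line-wise contrasts, and 0 to 2 with an array or line left out. The count of 1 for SA100 against lomustine became 0 with quantile normalization and 0 with median centring, and 0 to 1 with an array or line left out. The F test across lines gave 2 with quantile normalization (5.85% of all genes), 2 without both arrays (6.57%), and 0 to 1 with an array or line left out. Lomustine within S51A gave 0 to 9 with an array left out. The cause of these moves was not tested. Within PAR and HRI, and for the responses between lines, every alternative gave 0. The repair genes' median ran from −0.21 to −0.05 with lomustine and from −0.07 to 0.04 with SA100. Each move was smaller than the SD of the line-wise medians over the 6 lines, which is not a spread between replicate arrays. The single-gene estimates of FANCF, REV3L, FANCC, MSH6, MUS81 and FANCB with lomustine, of REV3L, FANCF, ALKBH2, ALKBH3, MSH6 and RAD18 with SA100, and of RAD18 between the drugs kept their sign under each alternative, but 7 of the 37 lomustine estimates changed sign without S51A lomustine B, and 10 without both arrays. The letters A and B were not used to pair arrays, because the labels do not say that they do. The differences between A and B correlated between arms by 0.334 in PAR, −0.388 in S51A and −0.561 in HRI. These 3 values, of both signs, cannot settle whether arrays were paired. With the replicate block, 0 repair genes passed with lomustine and 87 of all genes did, against 178. With crossed letters, a block added after the data were seen, 0 repair genes and 287 of all genes passed.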
